A study of Danio rerio with 12 samples.

Results

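Collagen and laminin chain genes encode the protein chains from which extracellular matrix is built, and they were followed here in macrophages and in endothelial cells around ruptured brain vessels of zebrafish larvae. A gene was taken as a member when its deposited description named a collagen alpha chain, a collagen type or a laminin chain and its RPKM was above 0 in at least 2 libraries. RPKM is the read number of a gene after scaling to gene length and library depth. Of 33737 genes, 102 had such a description. Of these, 6 were at 0 in all libraries and 11 were above 0 in 1 library, which left 85 members: 18 laminin genes, 65 collagen genes and 2 genes annotated as Collagen type IV alpha-3-binding protein. The latter pair encodes a ceramide transfer protein and no matrix chain, so the data hold 83 chain genes and 2 genes that only the wording brought in.

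The series asked how macrophages repair a ruptured brain vessel by adhering to its ends and pulling on them, per its title. Its 12 libraries formed 6 groups of 2: macrophages and endothelial end cells, each from an uninjured control, at macrophage arrival and at macrophage traction. Endothelial cells came from Tg(flk1:DenNTR; coro1a:eGFP) larvae and were marked by red Dendra2. Macrophages came from Tg(coro1a:Kaeda; flk1:eGFP) larvae and were marked by red Kaeda. All larvae carried both transgenes of their line, the strain label was ABGO for every sample, and the labels used here give no age. The flk1 promoter drives expression in endothelium, and the coro1a promoter in leukocytes as a whole, so coro1a does not mark macrophages alone. A laser converted about 80 cells in 20 animals, heads were dissected and dissociated, and the cells were sorted, so each library pooled cells of several larvae. Replicates are written in label order, replicate 1 first. Nothing in the labels states that a pair came from separate sets of larvae, so the p-values speak only of the spread among these libraries, which may be technical.

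Laminins are cross-shaped trimers of an alpha, a beta and a gamma chain, and they form the first sheet of a basement membrane. Type IV collagen forms a second network in that sheet, built of alpha-1 and alpha-2 chains in nearly all vessels. Fibrillar collagens form the fibres of connective tissue, cartilage and the eye, fibril-associated collagens coat such fibres, and multiplexins link fibres to basement membranes. In brain vessels the basement membrane lies between endothelial cells and the pericytes and glia around them.

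Reads in genes ranged from 12283046 to 39447004 per library, and 8929 to 17011 genes had a read. The summed RPKM of 15 endothelial marker genes was 236.9 to 4094 in endothelial libraries and 10.6 to 32.5 in macrophage libraries. Of these 15 genes, 7 were at 1 RPKM or more in endothelial traction replicate 1, and 11 to 14 in each of the other endothelial libraries. Across 19 markers of macrophages, RPKM summed to 2637 to 12360 in macrophage libraries and 0.728 to 34.3 in 5 endothelial libraries. The remaining one, control replicate 2, had 1621. Only part of the list was present in it, with 8 of the 19 genes at 1 RPKM or more and 8 at 0. CORO1A led there at 703.7 RPKM and csf1rb was at 66.0. The MFAP4 genes were at 0.0413 or less, csf1ra at 0.0477 and marco at 0. Photoreceptor and lens markers stood out in 3 libraries, with summed RPKM of 31470 (endothelial traction replicate 1), 30450 (endothelial arrival replicate 2) and 1122 (macrophage traction replicate 1). The other 9 libraries had 184.7 or less. In the 3 libraries 8, 10 and 13 of the 20 listed genes were at 0, in the same order. The lens genes on the list were at 0.0451 RPKM or less in all 3, so photoreceptor genes gave the signal. The erythroid list reached 18560 to 64400 RPKM in 5 endothelial libraries, against 1.67 to 122 in macrophages. The remaining endothelial library, arrival replicate 1, had 23.2 and so lay within the macrophage range. Neuron and glia markers summed to 199.6 to 4810 RPKM in endothelial and 17.2 to 1273 in macrophage libraries. The highest sums came mostly from a single FABP7 gene (ENSDARG00000007697). It was at 3774 RPKM in endothelial arrival replicate 2, which had the 4810, and at 1008 in macrophage traction replicate 1, which had the 1273. In endothelial control replicate 2, which had the 199.6, it was at 6.95. Cartilage and bone markers summed to 956.6 RPKM in endothelial traction replicate 1 and to at most 81.1 in any other library. In these pools of cells, fewer cells of a type and less RNA per cell cannot be told apart.

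Members were a small part of each library. They took 0.0204% of the reads in macrophage arrival replicate 2, the lowest share, and 0.658% in endothelial traction replicate 1, the highest. In macrophages 5 to 15 of the 85 members reached 1 RPKM in a library, and in endothelial cells 10 to 27 did. That was 5.88% to 17.6% of members in macrophage libraries, where 21.3% to 38.3% of all genes did. In endothelial libraries it was 11.8% to 31.8%, where 15% to 32.1% of all genes did. Of all members, 23 reached 1 RPKM in no library, 23 in 1 library and 9 in 6 libraries or more. The filter on low reads kept 58 members for testing. Most other members were at a fraction of 1 RPKM throughout, such as COL10A1.

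Every endothelial library held RNA of lama4, and the macrophage libraries held next to none. RNA of beta-1 laminin and of the alpha-1 and alpha-2 chains of type IV collagen was also high in most endothelial libraries, but low in 1 or more of them. lama4 (ENSDARG00000020785) encodes laminin alpha-4, the alpha chain that endothelial cells of mice and humans lay down early in vessel growth. Its RPKM was 56.4 and 25.1 in endothelial control, 52.8 and 8.52 in arrival, and 10.1 and 49.6 in traction. In macrophages it was 0.00568 and 0.327 in control, 0.0246 and 0.0129 in arrival, and 0 and 0.0182 in traction. The 2 cell types did not overlap: every endothelial library lay above every macrophage library, the lowest being the 2 libraries with the highest photoreceptor signal. The part of red blood cell RNA in the difference of lama4, and in the other differences between cell types, was not tested. lama4 had the highest mean of all members in endothelial cells, 4.78 ± 1.18 on the log2(RPKM + 1) scale (SD, n = 6), and ranked 53rd in macrophages.

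The test compared the cell types over all 12 libraries with lesion stage in the model, by limma on log2(RPKM + 1). Of 58 tested members, limma called 1 at an adjusted p under 0.05, where 2.82% of all 17613 tested genes passed. That member was lama4, lower in macrophages by a difference of -4.70 ± 1.00 (SE; adjusted p = 0.00602). It was also the only member whose libraries did not overlap in that direction, against 0.613% of all tested genes. lama4 passed under all 20 alternative settings, with adjusted p from 3.12e-06 to 0.0319. At an unadjusted p under 0.05 limma found 6 of 58 members, where 11.3% of all genes did, so the count was near the background. They were lama4, LAMB1, COL4A1, a second laminin beta-1 gene, a type IV alpha-2 gene and col1a1a, all with lower means in macrophages.

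Laminin beta-1, which pairs with alpha-4, is annotated on 3 tested genes whose lengths, as implied by the RPKM, are 6577 bases for LAMB1 (ENSDARG00000045524), 3381 for ENSDARG00000089288 and 2331 for ENSDARG00000026491. Reads of such copies or fragments may have been split between them by the counting. LAMB1 was at 21.4 and 42.2 RPKM in endothelial control, 82.3 and 11.6 in arrival, and 0.851 and 68.3 in traction. Macrophage values were at most 0.511 RPKM except for 7.48 in traction replicate 1. The groups overlapped only in that endothelial traction replicate 1 lay below macrophage traction replicate 1. Both of these libraries had photoreceptor signal. The difference was -3.85 ± 1.13 (limma adjusted p = 0.0685), and without endothelial traction replicate 1 it was -4.77 (adjusted p = 0.0136).

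ENSDARG00000089288 was at 45.2 and 17.2 RPKM in endothelial control, 60.4 and 3.28 in arrival, and 0.0373 and 1.02 in traction. In macrophages it was read only in control replicate 2, at 0.746 RPKM. Its difference between cell types was -3.00 ± 1.02 (limma adjusted p = 0.146). ENSDARG00000026491 was at 81.4 and 5.52 RPKM in endothelial control, 2.54 and 1.67 in arrival, and 0 and 0.0303 in traction, and at 20.7 RPKM in macrophage arrival replicate 1. That macrophage library held 3 reads of lama4 and none of lamc1, so the 3 chains did not go together in it.

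The summed RPKM of the 3 beta-1 genes stood at 2.62, 2.59, 2.75 and 1.94 times that of lama4 in the endothelial control and arrival libraries. In endothelial traction the ratio was 0.088 in replicate 1 and 1.40 in replicate 2. LAMB1 gave 14.5% to 70% of the beta-1 RPKM in the first 4 libraries and 95.8% and 98.5% in traction. lamc1 (ENSDARG00000036279), the gamma-1 chain that completes most laminins, was far below its partners. It was at 4.41 and 8.45 RPKM in endothelial control, 0 and 0.00413 in arrival, and 0.0206 and 1.53 in traction. The 0 in arrival replicate 1 allows up to 0.0188 RPKM at a limit of 3 reads. Macrophages held as much of it, with 6.42 RPKM in control replicate 2, 5.15 and 1.07 in traction and at most 0.0231 in the other 3 libraries, and the cell types did not differ detectably (-0.08 ± 0.878, limma adjusted p = 0.982).

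The other laminins of vessels were low. LAMA5 (ENSDARG00000058543), the alpha-5 chain of mature vessels in mice, reached 6.81 RPKM in endothelial traction replicate 2, 3.52 in endothelial arrival replicate 2 and 2.13 in macrophage traction replicate 2. The other 9 had 0.162 or less. lamb2l (ENSDARG00000033950), annotated as beta-2, followed the same 3 libraries with 7.49, 1.62 and 2.14 RPKM. LAMB2 (ENSDARG00000002084) stayed at or below 0.101 RPKM in all 12. An alpha-2 gene (ENSDARG00000022013), whose protein in mice is made by astrocytes, pericytes and muscle, lies outside the naming rule described below. This gene was at 10.1 RPKM in endothelial control replicate 1 and 10.6 in endothelial traction replicate 2, with 0.723 as the next value.

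**Figure D1:**
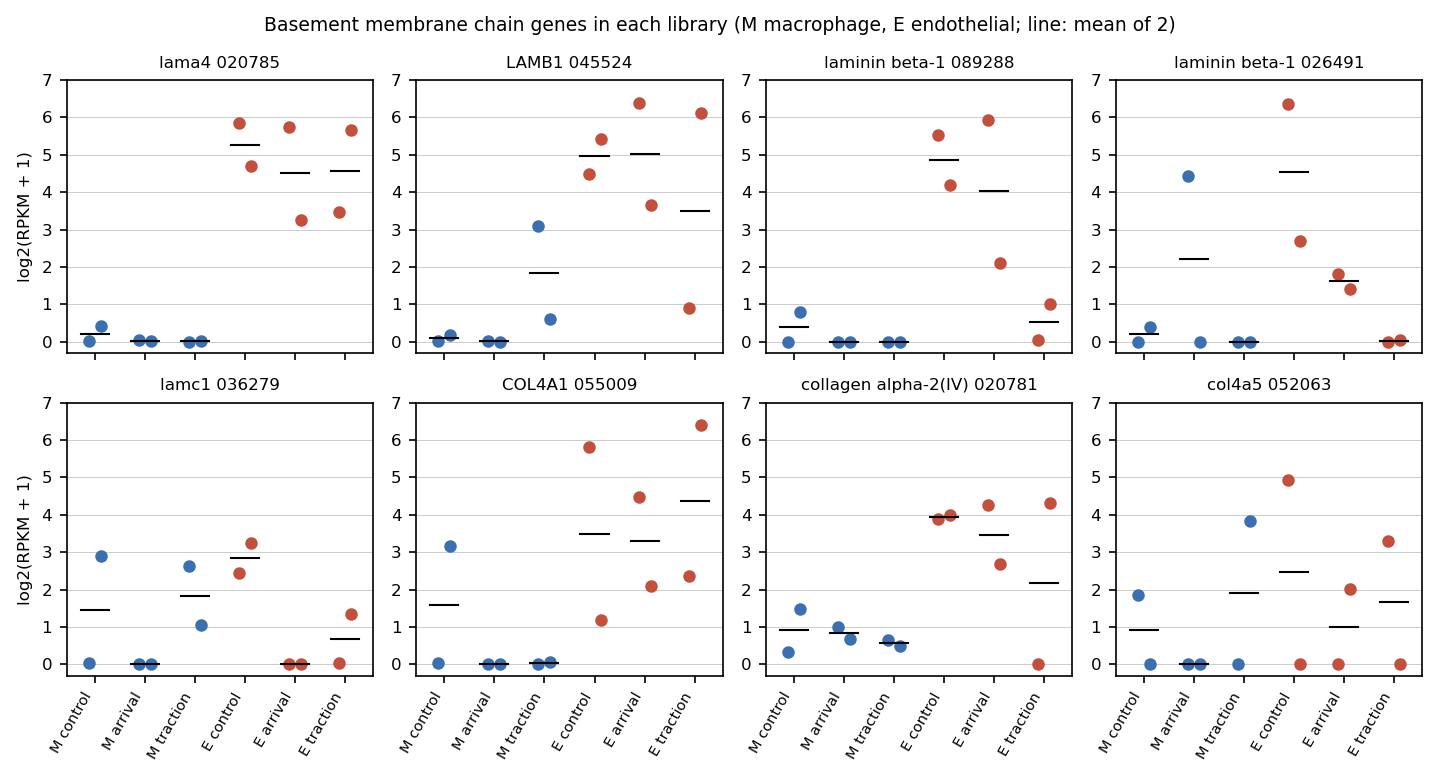
Level of 8 basement membrane chain genes as log2(RPKM + 1) in each of the 12 libraries, by cell type and lesion stage; points are libraries (blue macrophage, red endothelial), the line is the mean of 2, and each name is followed by the last 6 digits of the gene ID. lama4 is the panel in which all 6 endothelial libraries lie above all 6 macrophage libraries; the others overlap through 1 or more libraries.

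The type IV genes with the highest mean levels in endothelial cells were COL4A1 and an alpha-2(IV) gene, though not in every library. COL4A1 (ENSDARG00000055009), the alpha-1 chain, was at 55.1 and 1.27 RPKM in endothelial control, 21.3 and 3.28 in arrival, and 4.17 and 83.0 in traction. In macrophages it was at 8.05 RPKM in control replicate 2 and at most 0.0547 in the other 5. lama4 and COL4A1 were the only members at 1 RPKM or more in all 6 endothelial libraries, and no member was so in all 6 macrophage libraries. The difference of COL4A1 between cell types was -3.17 ± 1.12 (limma adjusted p = 0.175).

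The alpha-2(IV) gene ENSDARG00000020781 was read in all 12 libraries. It was at 13.9 and 14.9 RPKM in endothelial control, 18.1 and 5.38 in arrival, and 0.0105 and 19.0 in traction, and at 0.251 to 1.82 RPKM in macrophages. All endothelial libraries but traction replicate 1 lay above all macrophage libraries, with a difference of -2.43 ± 1.01 (limma adjusted p = 0.307). The 2 chains assemble in a fixed proportion in the protein, yet the ratio of COL4A1 to this gene in RPKM was 3.96 and 0.0853 in endothelial control, 1.18 and 0.609 in arrival, and 398 and 4.36 in traction. Traction replicate 1 held 614 reads of COL4A1 and 2 reads of the alpha-2(IV) gene.

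The remaining type IV genes showed no cell type in common. Their symbols and descriptions disagree in part, since the descriptions name the best-matching protein entry of another species. col4a5 (ENSDARG00000052063), described as alpha-1(IV), was at 29.7 RPKM in endothelial control replicate 1, 13.3 in macrophage traction replicate 2 and 8.90 in endothelial traction replicate 1, and at 0 in 6 libraries. In endothelial traction replicate 1 it was above COL4A1 and the alpha-2(IV) gene, and in control replicate 1 above the alpha-2(IV) gene. col4a6 (ENSDARG00000052061), the partner of alpha-5 in smooth muscle and skin of mammals, had its 2 highest values in 2 of the same libraries, 6.16 and 4.81 RPKM. si:dkeyp-110b2.2 (ENSDARG00000097433), described as alpha-2(IV), was highest in macrophage arrival replicate 1 at 11.5 RPKM and reached 7.87 in endothelial arrival replicate 1. col4a3 (ENSDARG00000003395) reached 4.50 RPKM in macrophage arrival replicate 1 alone, col19a1 (ENSDARG00000076163; described as alpha-1(IV)) 3.12 in macrophage traction replicate 2 alone, and COL4A4 (ENSDARG00000002831; described as alpha-2(IV)) 3.09 in macrophage control replicate 2.

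**Figure D2:**
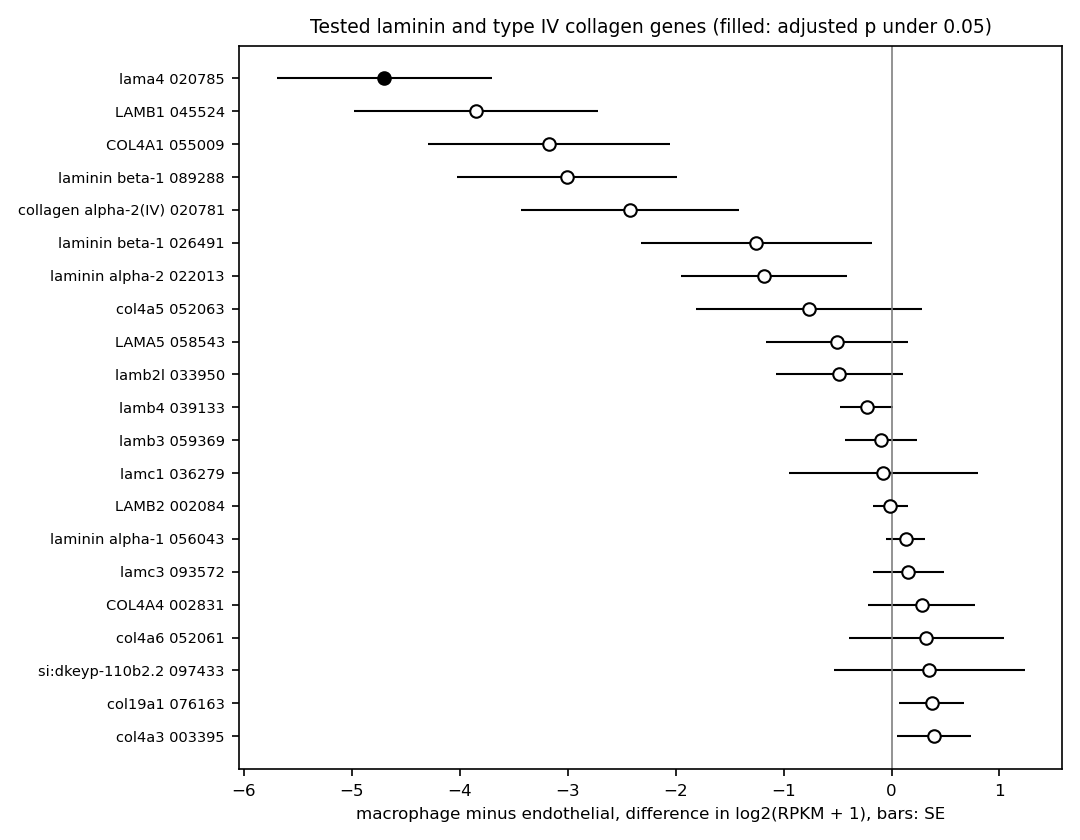
Difference between macrophages and endothelial cells in log2(RPKM + 1) for the 21 tested laminin and type IV collagen genes, with SE bars; the filled point passed limma at an adjusted p under 0.05. lama4 at -4.70 is the one that passed; 14 genes lie below 0 and 7 above.

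Over all 58 tested members the median difference between macrophages and endothelial cells was -0.46, against 0.19 over all tested genes, and 31.0% of members and 57.9% of all genes had the higher mean in macrophages. That median was not stable: it was -0.013 without endothelial traction replicate 1, -0.30, -0.29 and -0.31 without macrophage traction replicate 1, endothelial control replicate 1 or endothelial arrival replicate 2, and 0.063 without the 3 libraries with photoreceptor signal. The count test voom on recovered reads called 4 members, where 6.38% of all genes passed: lama4, LAMB1, the beta-1 gene ENSDARG00000089288 and COL4A1.

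Basement membrane chains made up most of the chain RPKM in some endothelial libraries and little in others. Laminins and type IV collagens together summed to 325.1 and 118.4 RPKM in endothelial control, 248.5 and 43.3 in arrival, and 26.7 and 247.5 in traction. That was 63.6% and 92.1%, 41.4% in arrival replicate 2 and 94.3% in replicate 1, and 2.17% and 92.2% of all chain RPKM. In macrophages the same genes summed to 3.85 to 44.2 RPKM, or 11.0% to 44.2% of the chain RPKM. The highest macrophage share was thus above those of 2 endothelial libraries, the pair with the photoreceptor signal.

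**Figure D3:**
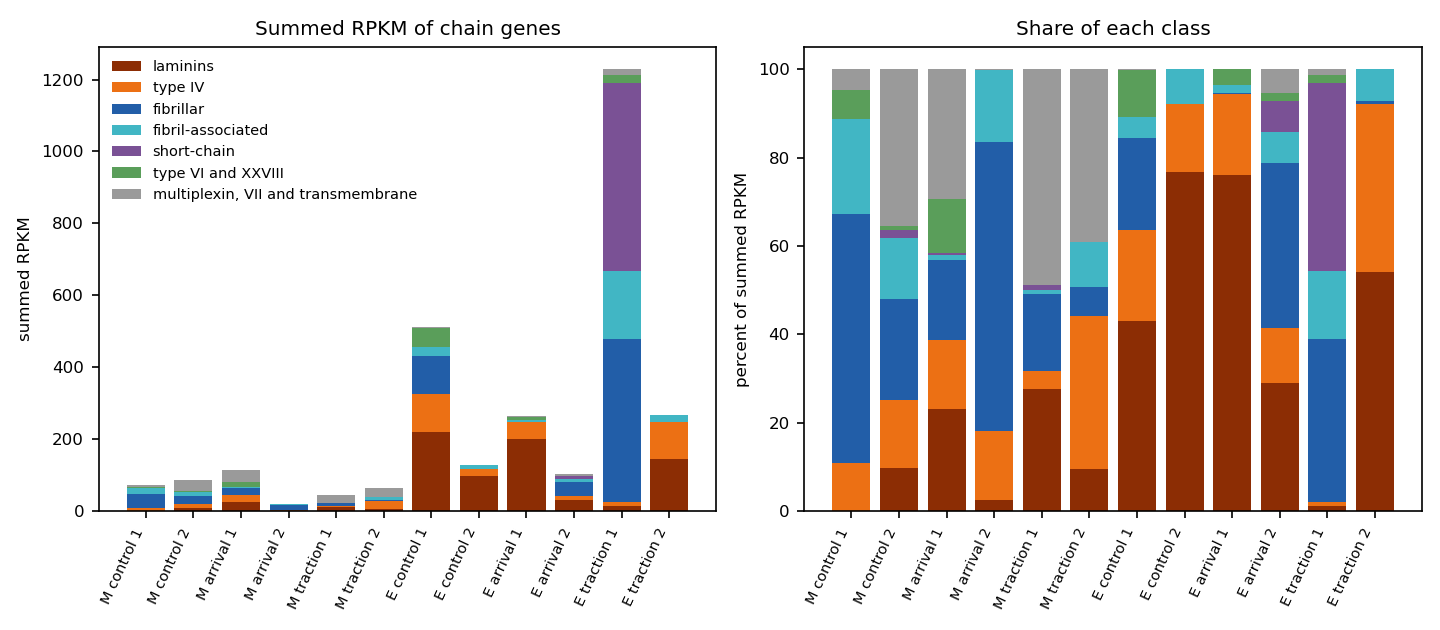
Summed RPKM of the 83 chain genes by class in each library (left) and each class as a percent of that sum (right); bars are single libraries, M macrophage and E endothelial. Endothelial traction replicate 1 stands out with 1229 RPKM, of which laminins and type IV collagen are 2.17%.

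The other collagens, 57 genes, were spread unevenly, and 1 library held most of them. They summed to 1202 RPKM in endothelial traction replicate 1 and 186.2 in endothelial control replicate 1. Endothelial arrival replicate 2 had 61.2, the other 3 endothelial libraries had 10.2 to 20.9, and the macrophage libraries had 17.2 to 70.2. Of the 20 members with 90% or more of their RPKM in 1 library, 11 had it in endothelial traction replicate 1. Its leading member was COL8A2 (ENSDARG00000060893), a short-chain collagen of the corneal Descemet membrane in mammals, at 511.0 RPKM there. It had 7.21 in endothelial arrival replicate 2, and no other library exceeded 0.575.

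Chains of cartilage and vitreous came with it in that library. The following were chosen after their values were seen: COL2A1 (ENSDARG00000069093), the main chain of cartilage fibres, at 135 RPKM; COL9A1 (ENSDARG00000073699) at 92.2 and col9a3 (ENSDARG00000037845) at 51.8, which coat those fibres; and COL11A2 (ENSDARG00000012422; described as alpha-1(V)) at 51.4. Elsewhere these 4 were at or below 8.89 RPKM. COL9A2 (ENSDARG00000024492), the third chain of type IX, was at 22.9 RPKM there and at most 0.168 in any other library. Further chains of these types were less uniform. COL11A1 (ENSDARG00000026165) was at 38.1 RPKM there and at most 4.01 elsewhere. Another COL2A1 gene (ENSDARG00000011407) was at 11.4 there and 7.92 in endothelial arrival replicate 2. col11a1b (ENSDARG00000009014) was at 5.46 there and 15.8 in endothelial control replicate 1. col9a1b (ENSDARG00000031483) was at 0 in every endothelial library. Of the 17 cartilage and bone marker genes, 8 were at 1 RPKM or more in that library and 2 at 0, led by hapln1a at 346.6, snorc at 293.8 and MATN1 at 112.7 RPKM. SOX9 is the symbol of both ENSDARG00000043923, at 0.0119 there, and ENSDARG00000003293, at 12.2. The latter gene was not particular to the library, with 19.2 RPKM in endothelial arrival replicate 2 and 8.76 in endothelial arrival replicate 1. The endothelial markers summed to 236.9 RPKM, the lowest of the 6 endothelial libraries. The part of other cells in these values was not tested.

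Type I collagen, the main fibre of skin and bone, had no cell type of its own. col1a1a (ENSDARG00000012405) was at 55.1 RPKM in endothelial control replicate 1 and 49.5 in endothelial traction replicate 1. Endothelial arrival replicate 2 had 7.17, and the other 9 had 0.869 or less. COL1A1 (ENSDARG00000035809) was at 54.6 RPKM in endothelial traction replicate 1 and 17.7 in macrophage arrival replicate 1. COL1A2 (ENSDARG00000020007), the alpha-2 chain of the same trimer, was at 86.1 RPKM in endothelial traction replicate 1 and 18.6 in macrophage control replicate 1. All 3 genes were at 1 RPKM or more in endothelial traction replicate 1 and in endothelial arrival replicate 2. The cell type differences were -2.34 ± 1.09 for col1a1a, -0.35 ± 1.09 for COL1A1 and -0.20 ± 1.15 for COL1A2 (limma adjusted p 0.406, 0.926 and 0.963).

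Endothelial control replicate 1 held a different set. COL6A2 (ENSDARG00000061436), a chain of the beaded filaments around cells, was at 41.1 RPKM there, 4.57 in endothelial traction replicate 1 and at most 0.188 elsewhere. col27a1b (ENSDARG00000028236), a fibrillar collagen of notochord and cartilage in zebrafish, was at 27.7 RPKM there and at most 0.441 elsewhere. Of all 85 members 19 had their highest RPKM in that library and 20 in endothelial traction replicate 1. The same count over all genes was not made, and these libraries had 16357 and 15664 genes with a read. Mesenchyme and fibroblast markers summed to 71.9 RPKM in endothelial control replicate 1. The other 5 endothelial libraries had 0.633 to 5.40, and macrophages 28.3 to 127.1. Most of the 71.9 came from FMOD (ENSDARG00000044895) at 38.1 and DCN at 29.1. Of the 17 marker genes, 4 were at 1 RPKM or more in that library and 5 at 0. LUM was at 0.0291 there and PDGFRA (ENSDARG00000070494) at 0.0559. The part of mesenchyme and fibroblast RNA in the collagen values was not tested.

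SLC35C2 (ENSDARG00000037517) was the only collagen-described gene beside alpha-2(IV) read in all 12 libraries. Its description names collagen alpha-1(XX), while its symbol is that of a nucleotide-sugar transporter family member, so its identity is uncertain. It was at 0.0645 and 7.92 RPKM in endothelial control, 5.10 and 2.64 in arrival, and 3.91 and 18.2 in traction. In macrophages it was at 0.00525 to 3.57 RPKM.

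**Figure D4:**
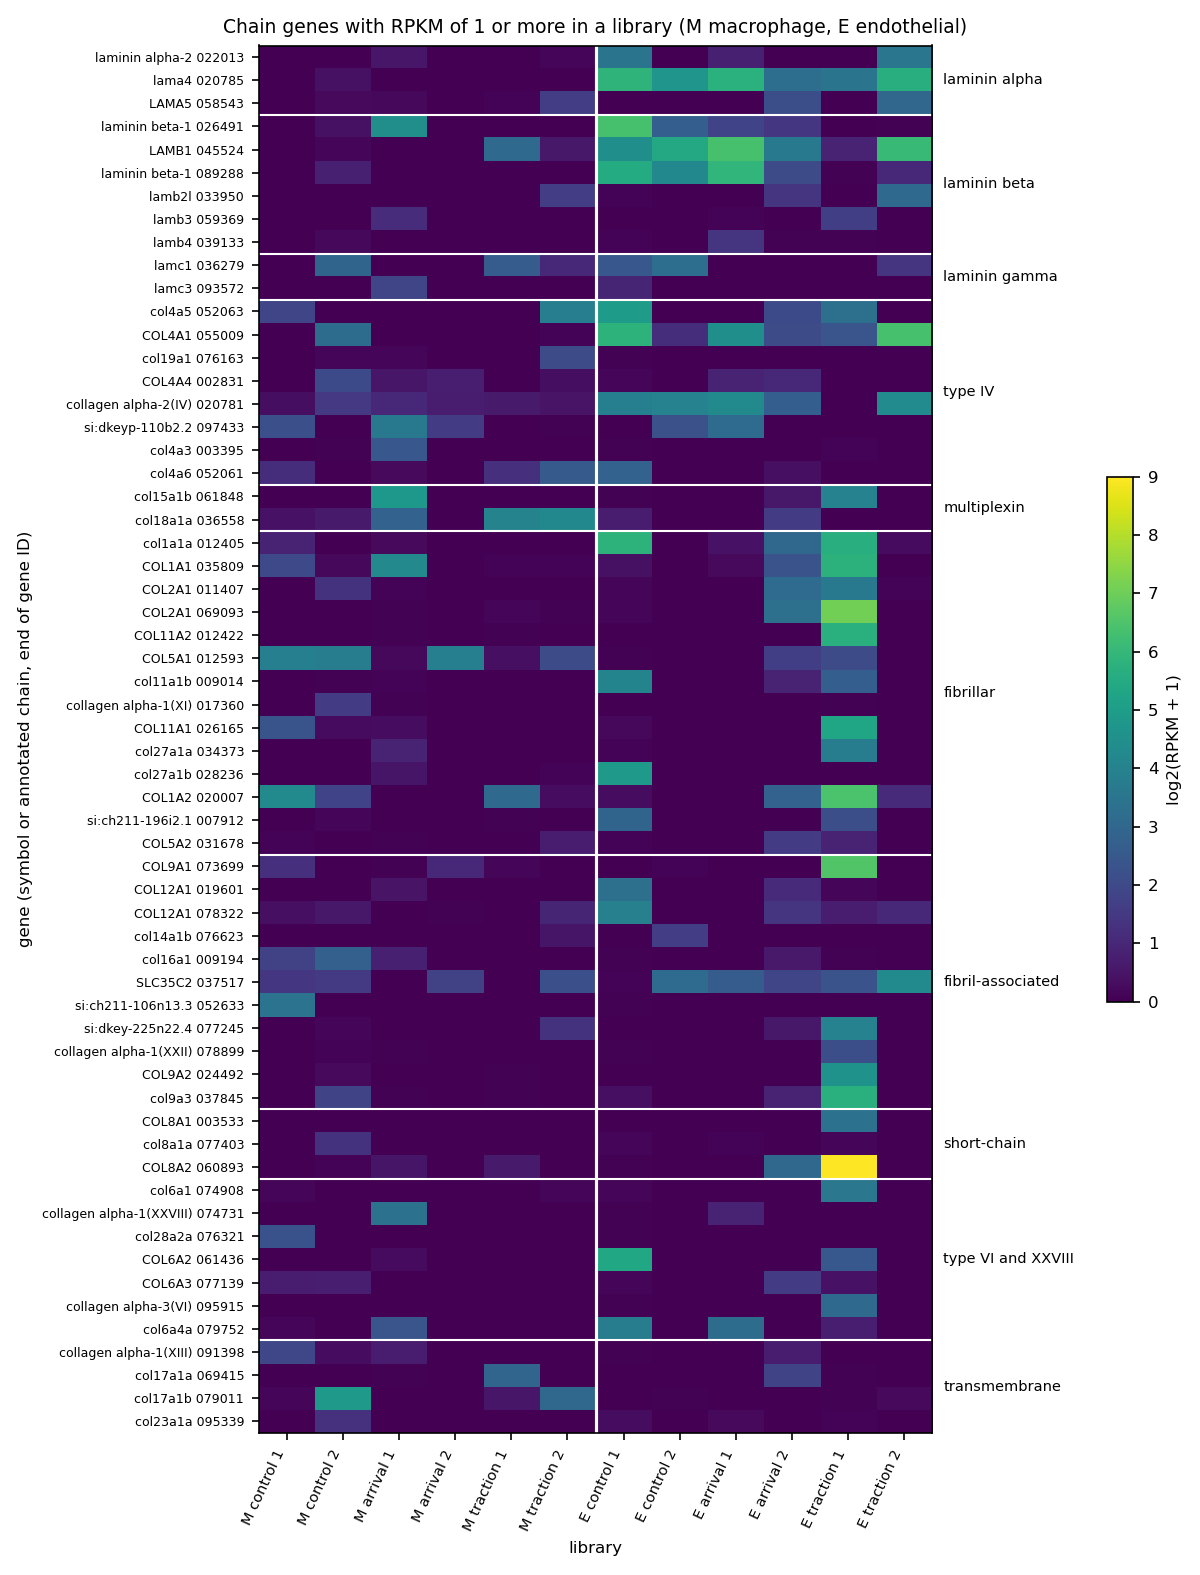
log2(RPKM + 1) of the 60 chain genes that reached 1 RPKM in a library, by class (rows, set apart by white lines) and library (columns; M macrophage, E endothelial). The column of endothelial traction replicate 1 is bright in the fibrillar, fibril-associated and short-chain classes, where COL8A2 reaches 511.0 RPKM, and the lama4 row is bright across the endothelial columns.

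Replicates shared few members. At 1 RPKM or more, macrophage control held 14 and 15 members with 5 in both libraries, macrophage arrival 10 and 5 with 1 in both, and macrophage traction 7 and 12 with 4 in both. Endothelial control held 18 and 10 with 7 in both, arrival 10 and 25 with 7, and traction 27 and 14 with 4. The 7 shared in endothelial control were lama4, the 3 beta-1 genes, lamc1, COL4A1 and alpha-2(IV), that is basement membrane chains throughout. Of tested members 20.7% had 90% or more of their RPKM in 1 library, against 5.81% of all tested genes.

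Macrophage libraries held a few collagens that endothelial libraries did not hold at the same level, though none passed the test. COL5A1 (ENSDARG00000012593), which starts collagen fibres and sets their width, was at 13.7 and 13.1 RPKM in macrophage control, 0.154 and 13.7 in arrival, and 0.299 and 3.14 in traction. Endothelial values ran from 0 to 3.15 RPKM, so the cell types overlapped (1.74 ± 1.00, limma adjusted p = 0.532). col18a1a (ENSDARG00000036558), a multiplexin of basement membranes whose end fragment is endostatin, was at 0.369 and 0.578 RPKM in macrophage control, 6.10 and 0 in arrival, and 15.3 and 17.5 in traction. Both traction libraries lay above the other 10, of which endothelial libraries reached at most 2.00.

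col17a1b (ENSDARG00000079011), a transmembrane collagen of epithelial attachment, was at 27.8 RPKM in macrophage control replicate 2 and 7.17 in macrophage traction replicate 2, and at most 0.469 elsewhere. Epidermis markers summed to 62.4 and 902.8 RPKM in these 2 libraries and to 0.774 to 1000 in the other macrophage libraries, and their part was not tested. col15a1b (ENSDARG00000061848), the second multiplexin, chosen after its values were seen, was at 26.8 RPKM in macrophage arrival replicate 1 and 15 in endothelial traction replicate 1, with 0.488 or less elsewhere. The ceramide transfer gene ENSDARG00000063542 had the highest macrophage mean of all members, with 19.3 and 56.5 RPKM in control, 0.333 and 19.2 in arrival, and 2.54 and 17.8 in traction.

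**Figure D5:**
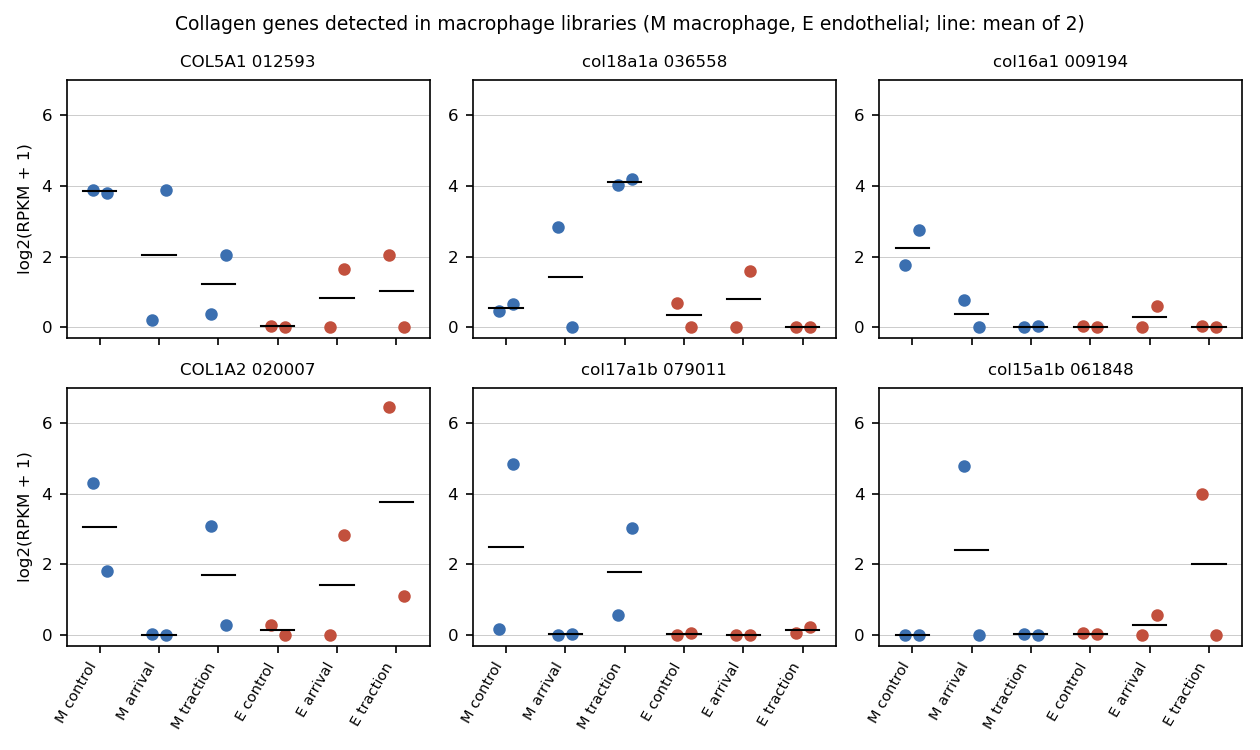
Level of 6 collagen genes as log2(RPKM + 1) in each library, by cell type and lesion stage; points are libraries (blue macrophage, red endothelial) and the line is the mean of 2. col18a1a is high in both macrophage traction libraries, at 15.3 and 17.5 RPKM; no stage difference passed limma at an adjusted p under 0.05.

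Stages were compared next, to ask whether either cell type changed its matrix genes as the macrophage arrived and pulled. No member passed limma in any of the 6 stage comparisons, and no gene of all 17613 did (0.0%) except 1 in macrophage traction against arrival (0.00568%). An exact permutation test was not run, since with 2 libraries on each side its smallest p is 0.333. At an unadjusted p under 0.05 the members numbered 1, 2 and 0 for arrival against control, traction against control and traction against arrival in macrophages, and 1, 6 and 4 in endothelial cells. The shares of all genes under that p were 4.16%, 5.96% and 3.36% in macrophages and 4.08%, 3.8% and 3.38% in endothelial cells.

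Between uninjured and arrival macrophages, col16a1 (ENSDARG00000009194), a fibril-associated collagen, was at 2.36 and 5.79 RPKM in control and 0.717 and 0 in arrival (-1.87 ± 0.859, limma adjusted p = 1.00). COL1A2 was at 18.6 and 2.49 RPKM in control and 0.0177 and 0 in arrival (-3.04 ± 1.92, limma adjusted p = 1.00), and voom called it (adjusted p = 0.037) where it called 1.2% of all genes. col17a1b had the third smallest p of those with lower means in arrival (-2.48 ± 1.43). Those with the smallest p and higher means in arrival were the alpha-1(XXVIII) gene ENSDARG00000074731 at 1.69 ± 0.848, col4a3 at 1.2 ± 0.594 and lamc3 (ENSDARG00000093572) at 0.94 ± 0.563, each from replicate 1 alone. Libraries of the 2 stages did not overlap for 2 members with higher and 8 with lower values at arrival, of 58, against 12.5% and 11.1% of all genes.

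Between uninjured and traction macrophages, col18a1a differed by 3.56 ± 1.48 (limma adjusted p = 0.793) with both traction libraries above both control libraries. col16a1 was at 0 and 0.0162 RPKM in traction, below both control libraries (-2.25 ± 0.859, limma adjusted p = 0.716). COL5A1 was below its control values in both traction libraries (-2.63 ± 1.67), as was the alpha-1(XIII) gene ENSDARG00000091398 (-1.09 ± 0.618). col17a1a (ENSDARG00000069415) at 6.60 RPKM and col19a1 at 3.12 RPKM were each in 1 traction library alone (1.46 ± 0.887 and 0.97 ± 0.530). Groups did not overlap for 5 members with higher and 10 with lower values in traction, against 19.1% and 11.0% of all genes, and voom called no member (2.65% of all genes).

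Between arrival and traction macrophages, col18a1a differed by 2.71 ± 1.48 and si:dkeyp-110b2.2 by -2.60 ± 1.55, with no overlap for either (limma adjusted p = 1.00 for both). Others with a small p rested on 1 library, namely col17a1a (1.44 ± 0.887), col19a1 (0.94 ± 0.530), the alpha-1(XXVIII) gene (-1.70 ± 0.848) and col4a3 (-1.23 ± 0.594). Here 7 members had higher and 5 lower values without overlap, against 14.9% and 9.39% of all genes, and voom again called none (1.73%).

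Endothelial cells at arrival held lama4, LAMB1 and COL4A1 at levels that did not differ from control beyond the spread: -0.77 ± 1.69, 0.06 ± 1.93 and -0.21 ± 1.99 on the log2 scale. lamc1 was at 4.41 and 8.45 RPKM in control and 0 and 0.00413 in arrival, with no overlap (-2.84 ± 1.47, limma adjusted p = 0.978). voom called lamc1 (adjusted p = 0.00637), where it called 1.88% of all genes. col27a1b (-2.41 ± 1.12) and COL6A2 (-2.70 ± 1.46) had lower means in arrival from control replicate 1 alone. lamb4 (ENSDARG00000039133; 0.65 ± 0.413), COL5A2 (ENSDARG00000031678; 0.74 ± 0.585) and COL6A3 (ENSDARG00000077139; 0.69 ± 0.583) had higher means, each from 1 arrival library. Groups did not overlap for 1 member with higher and 6 with lower values, against 10.4% and 11.8% of all genes.

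In endothelial cells at traction lama4 differed from control by less than its spread (-0.71 ± 1.69), while 2 beta-1 genes lay below both control libraries in both traction libraries. ENSDARG00000089288 differed from control by -4.32 ± 1.65 and ENSDARG00000026491 by -4.51 ± 1.74, each at limma adjusted p = 0.979. voom called the latter alone (adjusted p = 0.0151), where it called 1.8% of all genes. LAMB1, the longest of the 3, was at 68.3 RPKM in traction replicate 2, above both control libraries, and at 0.851 in replicate 1 (-1.46 ± 1.93). Of the others, COL8A2 (4.48 ± 2.1) and COL9A2 (2.28 ± 1.03) rested on traction replicate 1, CERT1 (ENSDARG00000024325; 2.11 ± 0.984) on replicate 2 with 17.5 RPKM, and col27a1b (-2.42 ± 1.12) on control replicate 1. Groups did not overlap for 4 members with higher and 4 with lower values, against 8.7% and 14.5% of all genes.

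Against arrival, endothelial traction had the same beta-1 gene ENSDARG00000089288 lower in the mean (-3.48 ± 1.65, limma adjusted p = 1.00), with COL4A4 (-0.93 ± 0.847) and lamb4 (-0.67 ± 0.413) next. COL9A2 (2.29 ± 1.03), CERT1 (2.11 ± 0.984) and col6a1 (ENSDARG00000074908; 1.80 ± 0.827) had higher means, and col6a1 was at 10.9 RPKM in traction replicate 1 and 0.0233 in replicate 2. Groups did not overlap for 6 members with higher and 3 with lower values, against 7.9% and 11.5% of all genes, and voom called none (1.56%). Whether macrophages and endothelial cells differed in their change from control was tested directly, and no member and no gene passed, at arrival or at traction (0.0% of all genes for both). No member had an unadjusted p under 0.05 in either of these 2 tests (3.57% and 4.2% of all genes), and voom called none (0.21% and 0.352% of all genes).

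In the authors' deposited tables, which compare pairs of stages within a cell type, 2, 3 and 0 members had a p under 0.05 in macrophages for arrival against control, traction against arrival and traction against control, where 1.31%, 2.79% and 2.75% of all genes did. In endothelial cells 1, 4 and 4 members did for the same pairs, where 1.31%, 1.63% and 1.32% of all genes did. No adjusted p of a member was under 0.05 in the authors' deposited tables. The members in them for endothelial traction against arrival were COL11A1, COL9A2, COL9A1 and COL11A2, each at or below 1 normalised count in the authors' arrival mean and high in traction replicate 1 alone.

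Genes that modify, assemble, cut or bind these chains were counted from 5 lists. In the comparison of cell types limma called 2.82% of all tested genes. Of the lists, 1 of 15 tested basement membrane partners passed, 0 of 22 genes for collagen modification and secretion and 0 of 15 for assembly and crosslinking. Among matrix proteases and inhibitors 4 of 15 passed, and among matrix receptors 3 of 18. The 3 receptors that passed were collagen-binding integrin alpha chains, all lower in macrophages: ITGA1 (-4.46 ± 1.00, limma adjusted p = 0.00965), itga2.3 (-4.37 ± 0.988, 0.00985) and itga2.1 (-3.54 ± 0.982, 0.0461). ITGA11, a further collagen receptor chain on the list, did not pass. It reached 11.9 RPKM in macrophage arrival replicate 2 and at most 0.82 in endothelial libraries. ITGA1 was at 80.9 and 10.0, 66.9 and 15.7, and 6.30 and 18.4 RPKM in endothelial control, arrival and traction, and at most 0.151 in macrophages. itga2.3 ranged from 9.30 to 87.5 RPKM in endothelial libraries and reached 1.40 in macrophages. itga2.1 lost its call when any of 10 single libraries was left out, with limma adjusted p up to 0.146.

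The 4 proteases were lysosomal cathepsins, which break down collagen inside cells or around them, and all were higher in macrophages. They were ctsl.1 (9.12 ± 0.987), CTSB (6.09 ± 0.870), CTSK (5.66 ± 1.18) and ctsla (3.10 ± 0.715), with limma adjusted p from 1e-06 to 0.0117. ctsla lost its call without macrophage control replicate 1 or macrophage traction replicate 2 (limma adjusted p = 0.0549 for each) and with no filter on low reads (0.0645). CTSK, the main collagen-cutting cathepsin of bone, had 37.1 to 352.9 RPKM in macrophages. Endothelial control replicate 1 had 112.0, within that range, and the other 5 endothelial libraries had 0.0257 or less. The partner that passed was sdc4, a cell surface proteoglycan, higher in macrophages (3.58 ± 0.730, limma adjusted p = 0.00398). Without the 3 libraries with photoreceptor signal sdc4, ctsla, CTSK and the 3 integrins no longer passed, with adjusted p from 0.0555 to 0.169 and differences of the same sign.

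SERPINH1, the chaperone that collagen chains need in the endoplasmic reticulum, is the symbol of 2 tested genes. In endothelial cells both had lower values in arrival than in control. Their mean differences from control to traction had opposite signs, and neither passed limma. ENSDARG00000019949 was at 10.7 and 2.67 RPKM in endothelial control, 0.013 and 0 in arrival, and 7.65 and 161.8 in traction. No macrophage library exceeded 0.0276 (-2.64 ± 1.01, limma adjusted p = 0.24). ENSDARG00000075954 was at 23.6 and 12.0 RPKM in endothelial control, 0 and 1.78 in arrival, and 0 and 0.24 in traction, and at most 0.967 in macrophages. From control to traction in endothelial cells the first differed by 2.52 ± 1.61 and the second by -4.01 ± 1.28 (limma adjusted p = 0.979 for both). frem1b, a basement membrane protein, ranged from 0.578 to 34.9 RPKM in the endothelial libraries, above all macrophage libraries, whose highest value was 0.211. The difference was -3.37 ± 1.00 (limma adjusted p = 0.0734). No gene of the 5 lists passed limma in any stage comparison.

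voom did call genes of these lists between stages, and all of them are named here, after their values were seen. Between uninjured and traction macrophages it called 8 of 85 tested list genes (9.41%, against 2.65% of all genes). Of these, 6 had higher means in traction. P4HA1, an alpha subunit of the enzyme that hydroxylates collagen prolines, was at 0 RPKM in both control libraries, 6.39 and 8.31 in arrival, and 34.0 and 51.0 in traction (voom adjusted p = 0.000147, limma 0.626). P4HA2, its second form, was at 0 in both control libraries and at 11.73 and 15.5 RPKM in traction (voom adjusted p = 0.0131). sec23a, a coat protein of the vesicles that leave the endoplasmic reticulum, was at 0 in control and at 11.0 and 9.93 RPKM in traction (voom adjusted p = 0.00115). For all 3 genes both traction libraries lay above both control and both arrival libraries.

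FN1, fibronectin, was at 14.97 and 4.70 RPKM in traction macrophages and at most 0.00557 in the other 4 macrophage libraries. The collagenase mmp13a was at 425.5 and 7.01 RPKM in traction and at most 0.024 in the other 4. itga2b, the fibrinogen-binding integrin chain of platelets in mammals, was at 21.3 and 12.8 RPKM in traction and at most 0.0136 in the other 4. voom called these 3 against control (adjusted p = 0.000463, 0.00019 and 0.00383) and against arrival (0.0017, 0.000837 and 0.00319). Traction replicate 1 is the macrophage library with photoreceptor signal; its part was not tested, and replicate 2 had the same direction. CTSB and ctsl.1 had lower means in traction than in control (voom adjusted p = 0.0175 and 0.0319).

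Against arrival voom called 4 of the list genes in traction macrophages (4.71%), the fourth being ITGA11, a collagen receptor chain, at 4.86 and 11.9 RPKM in arrival and 0 in both traction libraries. In endothelial cells voom called the first SERPINH1 gene higher in traction than in arrival (adjusted p = 0.000346), PCOLCE2, an enhancer of procollagen trimming, lower (0.00414), and sdc2, a cell surface proteoglycan, higher in traction than in control (0.0184). It called none of the 85 in either cell type between arrival and control.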

How the data were processed

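Smart-seq2 libraries, full-length cDNA from very small inputs, were, per the labels' protocols, sequenced as paired reads (Illumina HiSeq). Per the submitters' processing notes, the tools were TopHat2 2.0.12, Bowtie2 2.2.3, DESeq 1.16.0 and HTSeq 0.6.0. A genome build was not given in the sources used here, and no coordinates or sequences are printed. The authors deposited RPKM for 33737 genes in 12 libraries. Scaling between libraries by reads in genes alone was inferred from the recovered reads described below. The authors' deposited tables for 6 pairs of stages give group means of normalised counts (a signal, scaled anew in each table), p-values and adjusted p-values. Reads per gene were recovered from the RPKM and these means; 100% of values above 0 were whole within a tolerance of 0.05 reads. The labels name no molecular identifiers, so reads are not molecules, the limit of 3 reads set for genes at 0 covers only counting error, and strand was not stated.

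The members, gene lists and tests were chosen with earlier results of these data known. The filter asked for 15 reads in all and for 10 reads, rescaled to the median depth, in 2 libraries, which left 17613 genes. limma 3.58.1 (R 4.3.3) was run on log2(RPKM + 1) with robust variances and a trend of variance on mean, all 12 libraries together; differences on this scale understate low genes. P-values are two-sided and adjusted by Benjamini-Hochberg over all tested genes in each of 9 comparisons, with a threshold of 0.05. The fit was tested on simulated data for the comparison of cell types only. Changes between stages were not simulated, nor was signal confined to single libraries. Of the members 69 had a symbol, from Ensembl names or RefSeq accessions; the rest are given by ID and description.

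Named were the 10 members with the highest mean in each cell type, those called, the 3 of smallest p in each direction between stages, all type IV genes and the vascular laminins (alpha-4, alpha-5, beta-1, beta-2, gamma-1); of other lists, genes called and up to 3 of smallest p. Exceptions are marked. Alternatives were a pseudocount of 0.1, no filter, quantile normalization, equal medians, voom on recovered reads, a replicate block, leaving out each library, and leaving out the libraries with photoreceptor signal.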

Additional observations from a re-analysis of the deposited data

Results flagged for a closer look

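The ceramide transfer gene ENSDARG00000063542, annotated as Collagen type IV alpha-3-binding protein, had differences of opposite sign in the 2 cell types between control and traction. In macrophages it was at 19.3 and 56.5 RPKM in control and at 2.54 and 17.8 in traction, so both traction libraries lay below both control libraries. In endothelial cells it was at 0 and 0.0418 RPKM in control and at 0.0549 and 97.9 in traction. The 0.0418 and 0.0549 lay below the limit of 3 reads, which is 0.0628 and 0.0823 RPKM in those libraries. The higher endothelial mean in traction thus rested on replicate 2 alone. The difference between the 2 changes was -5.39 on the log2(RPKM + 1) scale and did not pass (limma adjusted p = 0.953).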

How the results depend on the processing

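Of 58 tested members limma called lama4 alone between cell types. Quantile normalization, equal medians, leaving out the 3 libraries with photoreceptor signal, and leaving out these and endothelial control replicate 2 (an alternative chosen after seeing the data) each called 2, adding LAMB1, and voom called 4; leaving out single libraries gave 1 to 2. Between stages 0 were called. voom called 1 in macrophage arrival against control (COL1A2), 1 in endothelial arrival against control (lamc1) and 1 in endothelial traction against control (ENSDARG00000026491). Leaving out 1 library gave 0 to 1 in macrophage traction against control and against arrival, the 1 being col19a1 without traction replicate 1. Without the 3 photoreceptor libraries 3 were called in each of these 2 comparisons (COL5A2, col19a1 and si:dkey-225n22.4; 5.8% and 5.75% of all genes), 1 in endothelial traction against arrival (CERT1; 1.08%) and 3 for the cell type difference in traction (4.64%), which is near the share of all genes; these fits have 1 library in a group, assumed to vary like the others. Other counts matched the main ones. Scaling moved the median of all genes between cell types from 0.19 to -0.06 (quantile) and 0.09 (equal medians), between macrophage traction and control from 0.26 to 0.00 and 0.15, between macrophage traction and arrival from 0.11 to -0.03 under quantile normalization, and for the cell type difference in traction from 0.34 to -0.08 and 0.20.

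Libraries with the same replicate number shared little of their deviation from the group mean. The 15 correlations of same-numbered deviations ran from -0.211 to 0.14 with a median of 0.0279, and 2 exceeded 0.1. Such correlations cannot show whether libraries were handled in sets. The sample titles differ in punctuation, and both endothelial arrival titles share a style, so that split does not follow the replicate numbers. Sets of that kind were not tested. With the replicate block 1 member was called between cell types, lama4 (508 genes in all), and no call of a member changed.

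No named difference that passed turned its sign. Between cell types the following unpassed differences did. Under quantile normalization COL4A4 was at -0.064 and col4a6 at -0.24, under voom LAMA5 at 0.36, and without the 3 photoreceptor libraries si:dkeyp-110b2.2 was at -0.16 and col4a5 at 0.17; with endothelial control replicate 2 out as well, col4a6 was at -0.088. Leaving out single libraries ranged from -0.061 to 0.44 for COL4A4, -0.037 to 0.82 for col4a6, -0.425 to 0.44 for lamc1, -0.015 to 0.60 for col4a3, -0.041 to 0.006 for LAMB2 and -0.13 to 0.67 for si:dkeyp-110b2.2.

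Between stages the single-library ranges that crossed 0 were, for macrophage arrival against control, -0.027 to 2.43 for col4a3 and -0.007 to 3.39 for the alpha-1(XXVIII) gene; for macrophage traction against control, -0.055 to 1.99 for col19a1 and -0.005 to 2.92 for col17a1a; and against arrival, -0.077 to 1.96 and -0.022 to 2.90 for the same genes. In endothelial arrival against control they were -0.05 to 1.53 for COL5A2, -0.08 to 1.47 for COL6A3, -4.83 to 0.011 for col27a1b and -0.016 to 1.31 for lamb4. In endothelial traction against control they were -4.84 to 0.006 for col27a1b, -0.01 to 4.57 for COL9A2 and -0.02 to 8.98 for COL8A2. Quantile normalization gave -0.005 and -0.030 for col19a1 in macrophage traction against control and against arrival, and -0.20 for COL5A2 and -0.21 for COL6A3 in endothelial arrival against control. Without the 3 photoreceptor libraries col17a1a was at -0.005 and -0.022, COL5A2 at -0.05, COL6A3 at -0.08, COL9A2 at -0.01 and COL8A2 at -0.02 in the same comparisons. The cause was not tested, except that a difference resting on 1 library ends when it is left out. With 2 libraries a group, the number of libraries limits precision.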
